A study of Mus musculus with 2 samples.

Results

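The AP-1 subunit genes are 10 protein-coding mouse genes, taken by name from the 21938 protein-coding genes of the annotation. They are Jun, Junb and Jund, then Fos, Fosb, Fosl1 and Fosl2, and then Atf3, Batf and Batf3. A locus is a gene body with 50 kb added on each side, in the coordinates of the genome build mm10. The rule uses no measured value, but the genes were chosen with earlier results of these data known. The data are DNase-seq libraries from urinary bladders taken at 14 days of age from males of the strain B6CASTF1/J, first-generation hybrids of a C57BL/6J and a CAST/EiJ parent. The group, bladder, holds 2 libraries with no treatment label, of which replicate 2 is labelled as pooled from 3 males. The label of replicate 1 uses the singular, male, and gives no number of animals. With 1 group there is no condition to compare, and 2 replicates allow no test, so each mean stands with the SD between replicates (n = 2). The labels do not say whether the spread between the libraries is more than technical.

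AP-1 is a dimer of basic leucine zipper (bZIP) proteins that binds the DNA site TGACTCA, which reads TGAGTCA on the other strand. The search used TGANTCA, which also takes in TGAATCA and, on the other strand, TGATTCA, so not every match is TGACTCA. A Jun protein pairs with another Jun, with a Fos protein or with an ATF or BATF protein, while Fos proteins do not form stable dimers with each other. Several of the genes are immediate-early genes, transcribed within minutes of a growth factor, stretch or stress signal without new protein synthesis. Serum response factor binds their CArG boxes, and CREB and ATF proteins bind cAMP response elements with the core TGACGT. DNase I cuts DNA that nucleosomes leave bare, so a peak marks open chromatin, and a footprint is a short stretch within it that is protected from cutting. Openness is not transcription, and none of the values below is an RNA level.

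Replicate 1 had 139821 peaks and 331596 footprints, and replicate 2 had 82225 peaks and 200630 footprints. Peaks of the replicates that overlapped by at least 1 bp were joined into a region, and a region with peaks of both is called shared. A promoter is called open where a shared region lies within 1 kb of any annotated start of the gene, and its signal is that of the strongest such region. The signal is the authors' deposited density per peak. In each library the signals came in equal steps, of 0.00521 in replicate 1 and 0.00799 in replicate 2, with no signal off a whole step by more than 0.01 steps. Open promoters were found for 7 of 7 urothelium, 6 of 6 smooth muscle and 4 of 4 stroma markers. They were found for 1 of 4 endothelium markers, 0 of 6 immune markers, 0 of 3 hepatocyte markers and 0 of 3 striated muscle markers. In bulk tissue, fewer cells of a type and less openness per cell cannot be told apart.

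Of the AP-1 subunit genes 9 of 10 had an open promoter, against 66.1% of all protein-coding genes, and Batf was the exception. In replicate 1 alone 10 of the 10 had a promoter peak, against 70.5% of all genes, and in replicate 2 alone 9 had one, against 66.9%. With the authors' stricter peak lists the open count was again 9, against 61.8%. Promoters with 2 or more separate shared regions were found for 8 of the 10 genes, against 35.3% of all. Median promoter signal was 8.28 over the 9 open members, against 4.61 over all 14500 open promoters. The members were far from uniform, with promoter signals between 0.906 and 13.9.

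**Figure D1:**
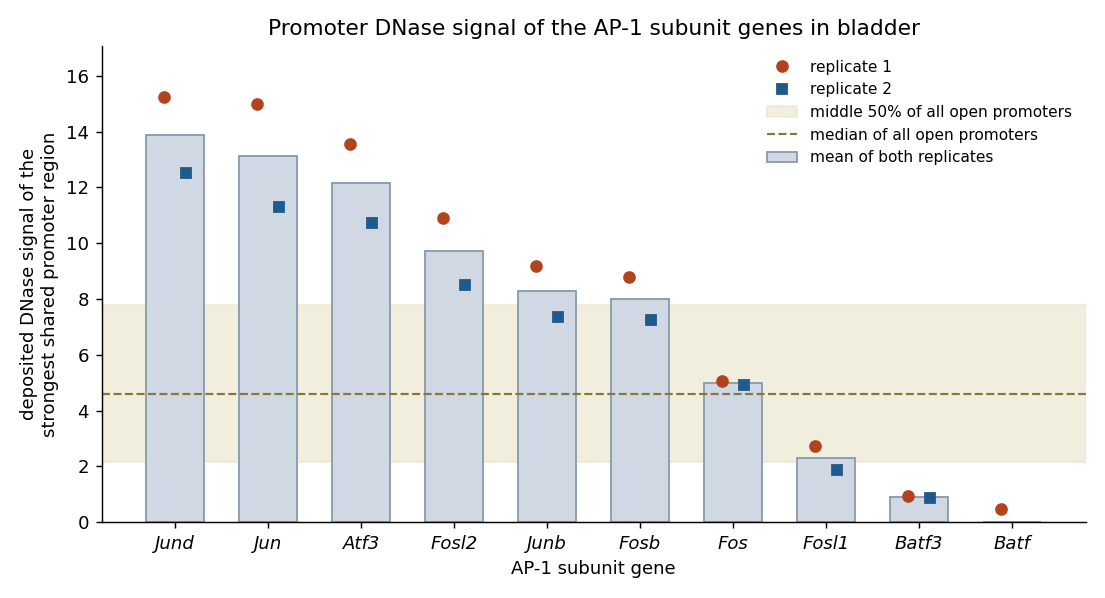
Deposited DNase signal of the strongest shared promoter region (y axis) for each AP-1 subunit gene (x axis), with replicate 1 as circles, replicate 2 as squares and the mean as bars; the dashed line and band give the median and the middle 50% of all open promoters. Jund, Jun, Atf3 and Fosl2 lie above the band in both replicates, Batf3 lies below it, and Batf has a peak in replicate 1 only and therefore no mean.

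The order of the means was Jund, Jun, Atf3, Fosl2, Junb, Fosb, Fos, Fosl1 and Batf3, and the values of these regions stood in the same order in each replicate. Where the strongest promoter peak was taken from replicate 2 alone, Junb, with 8.93 at its principal start, stood above Fosl2, with 8.52. From Jund down to Fosb the replicate ranges of neighbours overlapped. These are ranges of deposited values, and for each of these genes replicate 1 was the higher. The ranges thus include a difference between the libraries, and whether neighbours differ was not tested. From Fosb down the ranges did not overlap, in the steps between Fosb and Fos, between Fos and Fosl1 and between Fosl1 and Batf3.

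Among the Jun genes, Jund and Jun had the most accessible promoters of all members. Jund, whose protein is the broadly present Jun subunit of resting cells, had a promoter signal of 15.2 in replicate 1 and 12.5 in replicate 2 (mean 13.9 ± 1.9). That mean was higher than 97.4% of open promoters. Jun encodes c-Jun, the substrate for which the JNK kinases are named, and its promoter gave 15.0 in replicate 1 and 11.3 in replicate 2 (13.1 ± 2.6), above 96.4%. The promoter sequences are shown because each holds response element letters within footprints of both replicates. In Jund, capitals mark the palindrome TGACGTCA, then ACGTCA, which is TGACGT on the other strand, and then a CCAAT box. In Jun they mark a CCAAT box and TGACATCA. The sequences are the reference C57BL/6J genome, RefSeq GRCm38.p6, printed 5′ to 3′ along the gene's strand. The Jund stretch is chr8:70698719-70698948 on the plus strand, and the Jun stretch is chr4:95052223-95052422 on the minus strand, both mm10.
Jund promoter: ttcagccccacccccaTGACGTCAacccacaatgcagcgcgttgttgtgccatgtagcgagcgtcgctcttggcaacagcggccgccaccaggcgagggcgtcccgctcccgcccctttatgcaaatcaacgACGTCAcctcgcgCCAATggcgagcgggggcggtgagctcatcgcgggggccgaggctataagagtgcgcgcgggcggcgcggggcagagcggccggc
Jun promoter: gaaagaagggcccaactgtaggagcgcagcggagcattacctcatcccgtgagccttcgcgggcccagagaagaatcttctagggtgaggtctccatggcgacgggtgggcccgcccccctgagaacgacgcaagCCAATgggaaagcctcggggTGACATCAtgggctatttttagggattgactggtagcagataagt
Positions are counted from the principal start, whose base is 1 and whose preceding base is -1. In Jund the full palindrome TGACGTCA spans positions -214 to -207, the second core spans -98 to -93, and both were centred in a footprint of each replicate. TGACATCA at positions -45 to -38 of Jun was also centred in a footprint of each replicate. It is the form of the AP-1 site through which, as described for the human gene, Jun and ATF2 act on JUN itself. Jun had another shared promoter region 1099 bp upstream, at 6.27 in replicate 1 and 6.19 in replicate 2 (6.23 ± 0.057), which lies in an exon of the antisense gene Junos. A peak has no strand, so openness between divergent starts cannot be assigned to either gene.

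Junb, a Jun protein induced early after stimulation, had 5 shared promoter regions, the most of any member. Its principal start lay in a region with 7.61 in replicate 1 and 8.93 in replicate 2 (8.27 ± 0.94). A region of the same height was centred 2087 bp downstream of that start, between annotated transcripts of the gene, with 9.19 in replicate 1 and 7.37 in replicate 2 (8.28 ± 1.3). The means differed by less than either SD, and which of the pair was stronger changed with the replicate. The downstream region is shown because it carries a CArG box and a cAMP response element core, both in capitals (chr8:84976521-84976740, minus strand, mm10).
Junb downstream region: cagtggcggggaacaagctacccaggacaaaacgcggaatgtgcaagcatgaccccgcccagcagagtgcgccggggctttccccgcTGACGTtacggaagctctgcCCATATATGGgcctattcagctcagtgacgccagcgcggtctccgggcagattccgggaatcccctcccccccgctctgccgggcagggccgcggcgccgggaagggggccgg
Its CArG box, CCATATATGG, was centred in a footprint of replicate 1 and of no footprint in replicate 2.

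Among the Fos genes the mean promoter signals spread from 2.30 to 9.72, while those of the Jun genes lay between 8.28 and 13.9. Fosl2, which encodes FRA-2, gave 10.9 in replicate 1 and 8.52 in replicate 2 (9.72 ± 1.7, above 85.8% of open promoters). Fosb gave 8.78 in replicate 1 and 7.26 in replicate 2 (8.02 ± 1.1), in a region inside a Fosb exon 1350 bp downstream of the principal start. These 2 genes had the highest Fos family signals in both replicates. The region on the upstream side of the principal Fosb start, centred 330 bp before it, had 8.03 in replicate 1 and 5.85 in replicate 2 (6.94 ± 1.5). Fos itself, the founding immediate-early member, had 5.07 in replicate 1 and 4.92 in replicate 2 (5.00 ± 0.10), which is above 53.4% of open promoters and so near the middle. Fosl1, which encodes FRA-1, had 2.75 in replicate 1 and 1.85 in replicate 2 (2.30 ± 0.63), above 26.8%. Fos and Fosl1 were thus the members of the family near or below the middle of all open promoters.

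The Fos and Fosb promoters are shown for their CArG boxes and cAMP response element cores, and the TATA box of Fos, all in capitals. The stretches are chr12:85473570-85473869 on the plus strand and chr7:19310082-19310381 on the minus strand, mm10.
Fos promoter: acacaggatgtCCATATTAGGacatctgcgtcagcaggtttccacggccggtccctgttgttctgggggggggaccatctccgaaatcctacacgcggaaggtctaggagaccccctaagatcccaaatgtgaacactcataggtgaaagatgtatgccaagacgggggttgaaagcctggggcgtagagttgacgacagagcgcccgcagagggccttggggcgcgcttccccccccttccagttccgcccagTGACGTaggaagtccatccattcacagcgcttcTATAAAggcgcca
Fosb promoter: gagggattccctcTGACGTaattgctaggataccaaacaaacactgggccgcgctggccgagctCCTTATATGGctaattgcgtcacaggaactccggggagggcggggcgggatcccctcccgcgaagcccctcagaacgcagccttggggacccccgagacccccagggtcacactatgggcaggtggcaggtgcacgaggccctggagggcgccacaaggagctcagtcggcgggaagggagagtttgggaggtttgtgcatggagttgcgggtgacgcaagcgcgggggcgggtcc
The Fos CArG box, CCATATTAGG, spans positions -309 to -300 and is the core of the serum response element for which this promoter is known. It was centred in no footprint of either replicate. The TGACGT at -66 to -61 and the TATAAA at -33 to -28 were each centred in a footprint of both replicates. In Fosb the CArG box, CCTTATATGG, spans -266 to -257 and lay in no footprint, while TGACGT at -317 to -312 was centred in a footprint of both.

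At Fosl1, matches to TGANTCA lay in the gene and upstream of it. A region in its intron, 1298 bp downstream of the start, holds TGAGTCA and had a peak in replicate 1 only, with a signal of 0.682. That site was centred in a footprint of replicate 1. Upstream, a shared distal region 17576 bp before the start, with 2.52 in replicate 1 and 2.00 in replicate 2 (2.26 ± 0.37), holds TGANTCA at 2 places. These read TGAATCA, which is not TGACTCA on either strand, and TGAGTCA. Both stretches are shown with these letters in capitals, the upstream one at chr19:5429841-5430100 and the intronic one at chr19:5448777-5448912, plus strand, mm10.
Fosl1 upstream region: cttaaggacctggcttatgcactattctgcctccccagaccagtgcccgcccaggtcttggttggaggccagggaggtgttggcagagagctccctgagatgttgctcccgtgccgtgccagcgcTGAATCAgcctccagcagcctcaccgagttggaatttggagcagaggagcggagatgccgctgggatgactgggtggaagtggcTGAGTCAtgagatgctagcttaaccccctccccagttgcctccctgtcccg
Fosl1 internal region: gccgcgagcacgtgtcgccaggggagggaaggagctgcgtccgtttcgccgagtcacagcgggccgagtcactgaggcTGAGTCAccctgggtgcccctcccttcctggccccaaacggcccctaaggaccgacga
The protein-coding start nearest to the upstream region shown is that of AI837181, 4814 bp away, not that of Fosl1.

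Atf3, a stress-induced bZIP factor, had 1 of the most accessible promoters, and the BATF genes had the least accessible. Atf3 gave 13.6 in replicate 1 and 10.7 in replicate 2 (12.2 ± 2.0, above 94.3% of open promoters), in a region centred 211 bp upstream of the principal start and inside an intron of a longer transcript. A neighbouring region that covers the start had 9.35 in replicate 1 and 6.63 in replicate 2 (7.99 ± 1.9). Batf3, a partner of Jun proteins needed for a class of dendritic cells, had 0.932 in replicate 1 and 0.879 in replicate 2 (0.906 ± 0.037). That is above only 9.20% of open promoters, although 3 shared regions lay at its starts. Batf, best known from T and B lymphocytes, had a peak of 0.474 in replicate 1, or 91 steps, and none in replicate 2. If 1 step is 1 cut, its 95% Poisson interval is 0.381 to 0.582, which covers counting error only. Batf had 98 bases at an FDR of 0.05 or lower within 1 kb of its principal start in replicate 1, with a lowest FDR of 0.0165, and 0 such bases in replicate 2. The promoters of the immune markers were also not open (0 of 6), though Ptprc and Cd3e each had a promoter peak in replicate 1 only. The part of immune cells in the BATF values was not tested.

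Atf3 and Batf both hold a TGACGT core close to the start, and are shown as the high and the low end of promoter signal with the same letters (capitals; ACGTCA is the core on the other strand). The stretches are chr1:191183335-191183490 on the minus strand and chr12:85686569-85686668 on the plus strand, mm10.
Atf3 promoter: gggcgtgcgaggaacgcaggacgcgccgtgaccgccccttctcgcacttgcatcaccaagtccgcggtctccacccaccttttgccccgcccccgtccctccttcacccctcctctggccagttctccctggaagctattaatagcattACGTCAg
Batf promoter: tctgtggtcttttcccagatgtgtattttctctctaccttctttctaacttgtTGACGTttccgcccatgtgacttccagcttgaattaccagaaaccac
The Atf3 core, at positions -1 to 5, was centred in a footprint of both replicates. The Batf core, at -47 to -42, was centred in none.

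Over the window from 250 bases before to 50 after the principal start, TGACGT occurred in 5 of the 10 promoters, against 8.62% of the 21938 promoters of the same length. The 5 were Fos, Fosl2, Jund, Atf3 and Batf. Its near relative TGACGC occurred in 4 of 10, against 8.86%, and GGGCGG, the core of Sp factor sites, in 9 of 10, against 44.6%. The AP-1 search letters TGANTCA occurred in 0 of 10, against 6.83%. A TGACTCA in the Fosl2 promoter region, centred 56 bp downstream of the start, lies just outside this window. All motifs were searched on both strands. TGACGT occurs inside TGACGTCA, which was counted once, and TGANTCA overlaps none of the others by its letters. The promoters were rich in G and C, with a median of 62.2% within 500 bp of the start against 55.0% for all genes. Median observed over expected CpG was 0.773, against 0.552, and Batf was the lowest member with 0.339.

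Around the genes, open regions were dense. The loci had a median of 18 shared regions, against 7 for the loci of all protein-coding genes, and median locus length was 108 kb against 117 kb. Per 100 kb the medians were 13.6 and 4.92. Footprints that overlapped between the replicates had a median of 34.5 per locus, against 13. Bases at an FDR of 0.05 or lower had a median of 8328 against 3946 in replicate 1, and of 6616.5 against 2762.5 in replicate 2. These medians ran in the same direction, but they come from the same cuts and are not separate evidence. Single loci could be ordinary. Batf3 had 13 overlapping footprints, as many as the median of all genes. Batf had 3783 bases at an FDR of 0.05 or lower in replicate 1, below the median of all genes.

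The loci differed in what made up these regions. Junb had 30 shared regions, more than 99.5% of genes, and Fosb had 26, of which 14 each were promoters of other genes. Fosl1 had 19, of which 16 were promoters of other genes and 2 were distal, meaning away by over 1 kb from every annotated start. Its locus also holds 11 other protein-coding genes, the most of any member. By contrast the loci of Fos, Fosl2 and Jun hold 0 other protein-coding genes. Fos had 12 shared regions, of which 10 were distal, and Fosl2 had 19, of which 14 were distal, the largest distal count among the members. Jun had 12, of which 5 were distal. Jund had 20 with 9 distal, Atf3 had 17 with 11 distal, Batf3 had 11 with 7 distal, and Batf had the fewest, 8 with 5 distal. In replicate 1 alone the counts were higher by over 1.5 times at 3 loci, with 23 peaks at Fos, 33 at Fosl1 and 20 at Jun. The median number of distal regions was 9.5 per locus, against 3 for all genes. In all, 172 distinct regions were shared, with 27 at the members' own promoters, 63 at other genes' promoters and 82 distal. The loci of Atf3 and Batf3 overlap on chromosome 1, and 2 of these regions lie in both.

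**Figure D2:**
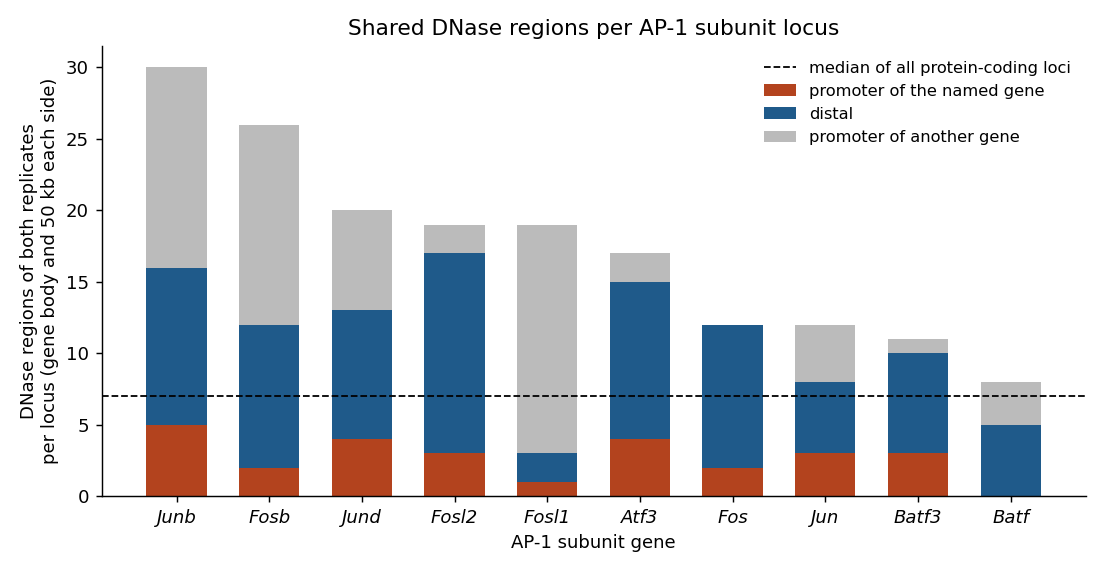
Number of shared DNase regions per locus (y axis, gene body and 50 kb each side) for each AP-1 subunit gene (x axis), split into the gene's own promoter, distal regions and promoters of other genes; the dashed line is the median of all protein-coding loci, 7. All 10 loci lie above the line, Batf by 1 region, and most of the Fosl1 column is made of other genes' promoters.

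At Fos a pair of distal regions was more accessible than the promoter. The upstream one, centred 18529 bp before the start, had 10.6 in replicate 1 and 8.92 in replicate 2 (9.78 ± 1.2). The downstream one, centred 12231 bp after the start, had 10.0 in replicate 1 and 8.75 in replicate 2 (9.39 ± 0.91). In both replicates both regions lay above every replicate value of the Fos promoter, 5.07 and 4.92, and the upstream one was above 99.8% of the 45309 shared distal regions. The nearest protein-coding start to each is that of Fos. The upstream region holds TGACGT at 3 places and GGGCGG at 5, over 400 bp, and the downstream region holds a CArG box and 1 TGACGT. They are shown with the TGACGT cores, on either strand, and the CArG box in capitals. The upstream stretch is the last 300 bp of its region, chr12:85455261-85455560, and the downstream one is chr12:85486001-85486240, plus strand, mm10.
Fos upstream region: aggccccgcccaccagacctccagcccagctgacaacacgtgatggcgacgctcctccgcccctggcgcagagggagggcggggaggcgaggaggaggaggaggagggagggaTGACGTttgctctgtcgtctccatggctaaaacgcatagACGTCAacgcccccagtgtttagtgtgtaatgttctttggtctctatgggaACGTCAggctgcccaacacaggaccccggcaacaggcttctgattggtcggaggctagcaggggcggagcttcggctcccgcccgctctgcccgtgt
Fos downstream region: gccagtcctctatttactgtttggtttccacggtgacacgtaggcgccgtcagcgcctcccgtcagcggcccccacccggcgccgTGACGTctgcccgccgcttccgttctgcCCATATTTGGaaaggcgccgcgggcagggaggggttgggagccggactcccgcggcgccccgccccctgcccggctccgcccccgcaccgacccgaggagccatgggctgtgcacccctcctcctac
The downstream CArG box, CCATATTTGG, was centred in a footprint of both replicates, which the CArG box of the Fos promoter was not. None of the 3 upstream TGACGT cores was centred in a footprint of either replicate.

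**Figure D3:**
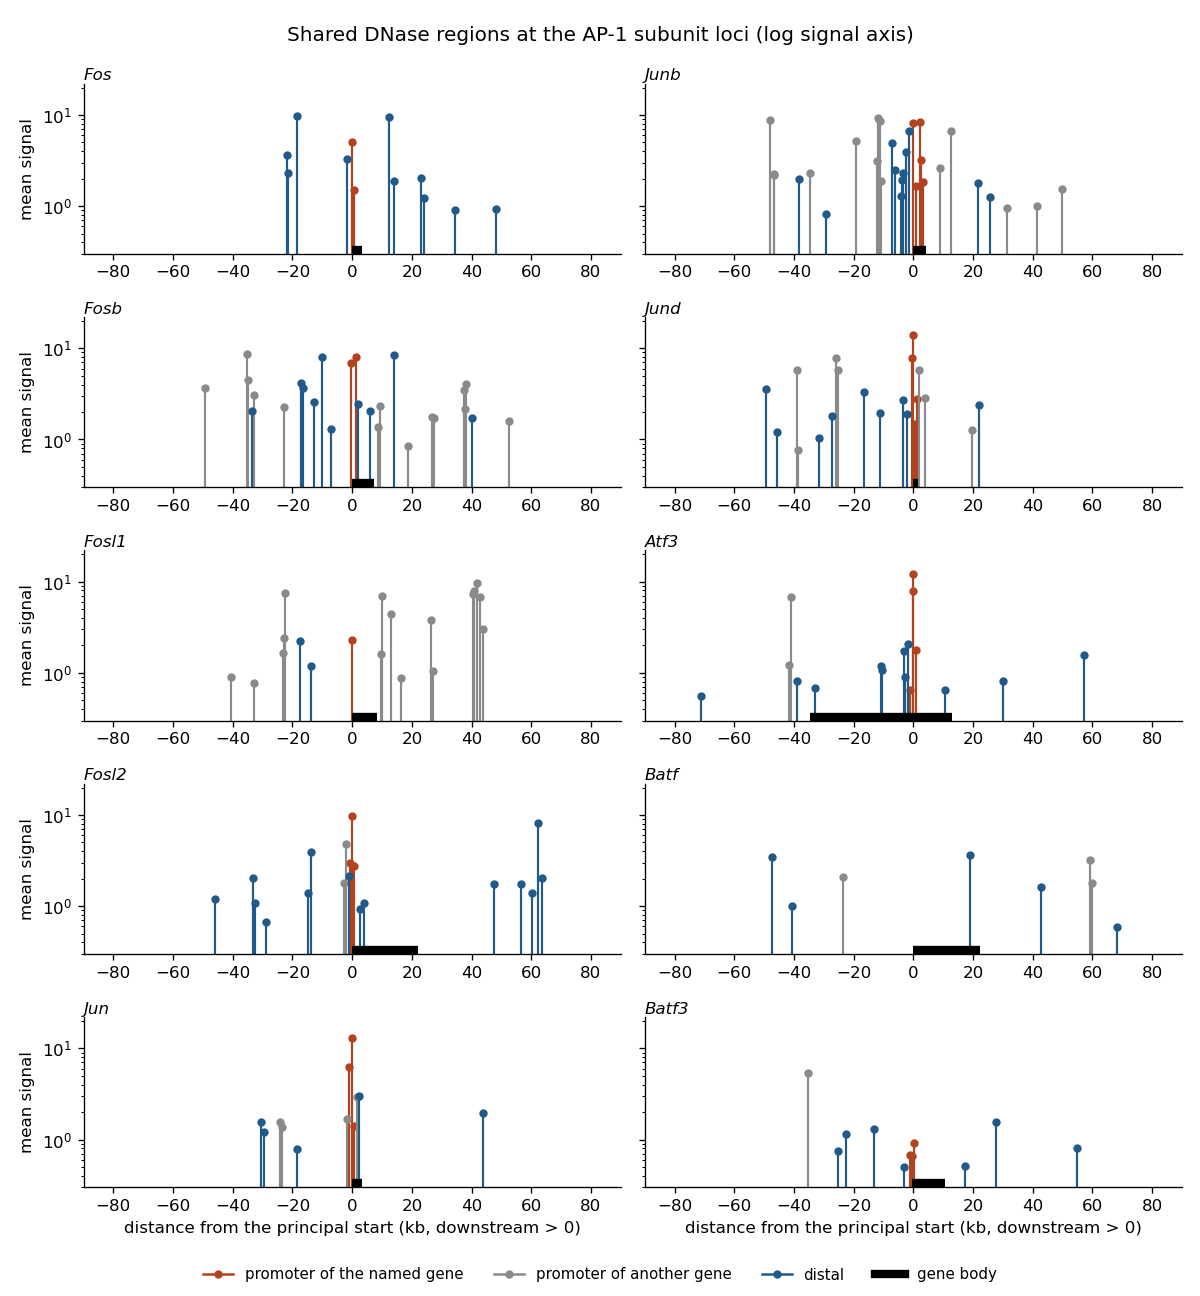
Shared DNase regions by distance of their centre from the principal start in kb (x axis, positive downstream) and mean deposited signal (y axis, log scale), in a panel per AP-1 subunit gene; colours separate the gene's own promoter, other genes' promoters and distal regions, and the black bar is the gene body. In the Fos panel 2 distal regions stand above the promoter, while in the Jund, Jun and Atf3 panels the gene's own promoter is the highest.

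Strong distal regions were also found at Fosb, Fosl2 and Junb. The strongest at Fosb, 14050 bp downstream of the start and in an exon of Rtn2, had 10.5 in replicate 1 and 6.44 in replicate 2 (8.46 ± 2.9), a mean above that of the Fosb promoter by less than 1 SD. At Fosl2 the strongest, 62110 bp downstream, had 9.48 in replicate 1 and 6.68 in replicate 2 (8.08 ± 2.0), and the nearest protein-coding start is that of Plb1, 34797 bp away. The Junb one, 1503 bp upstream, had 7.25 in replicate 1 and 6.03 in replicate 2 (6.64 ± 0.86) and holds a further CArG box, CCTAATATGG, in no footprint of either replicate. Counted over the locus by mean signal, distal regions stronger than the gene's own promoter numbered 2 at Fos and 1 at Fosb. They numbered 3 at Batf3, where the promoter was weak, and 0 at the other 6 genes with an open promoter. In replicate 2 the order turned round for the Fosb region, with 6.44 against 7.26 at the promoter. It also did for the Batf3 region 13181 bp upstream, with 0.688 against 0.879.

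The strongest distal regions of the remaining loci were weaker. Batf, whose promoter was not open, had one in its intron, 19022 bp downstream of the start, with 3.27 in replicate 1 and 4.06 in replicate 2 (3.67 ± 0.56), and the Batf start is the nearest protein-coding start. Jund had 3.59 ± 1.7 in an exon of Pgpep1, 49388 bp upstream. Jun had 3.00 ± 0.92 in its own exon, and Atf3 had 2.09 ± 0.35 in its intron, 1771 bp upstream. Batf3 had 1.57 ± 0.25 at 27816 bp downstream. Median signal of the 82 distal regions was 1.77, against 0.942 over all shared distal regions.

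The letters TGANTCA were about as common at these loci as elsewhere. Of the 82 distal regions 16, or 19.5%, had TGANTCA in the 200 bp at their centre, against 15.3% of all 45309 distal regions. That window reaches past the ends of narrower regions. Searched over whole regions the count was 15 of 82, or 18.3%, against 16.3%. With the stricter peak lists and the 200 bp window the order turned round, with 8 of 59, or 13.6%, against 14.9%. By the 200 bp window Atf3 had the most such regions, 4 of 11, and Fos had 0 of 10. Those of Atf3 include a region of 180 bp, 30069 bp downstream of the start, where the letters lay past its ends. The regions with the letters had a median signal of 1.26, against 1.90 for those without them, while over all distal regions the medians were 0.917 and 0.946.

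Of the 172 shared regions at the loci 140 held a footprint of both replicates, against 71.0% of all shared regions. Which sites these footprints covered differed between the kinds of site. Of 17 TGANTCA sites in the distal regions 0 were centred in a footprint of both replicates, against 3.97% at all distal regions. A count of 0 allows a share of up to 17.6%. In replicate 1, the library with more footprints, 3 of the 17 were centred in a footprint, and in replicate 2 0 were. TGACGT sites were centred in footprints of both replicates in 3 of 8 distal cases, against 14.8%, and in 6 of 10 cases at the members' own promoters, against 36.5% at all promoters. The 6 were in Fos, Jund (2), Fosb (2) and Atf3. TGACGC sites were so placed in 1 of 14 promoter cases, against 18.4%, and in 0 of 4 distal cases, against 12.6%. TGACATCA sites were so placed in 0 of 3 distal cases, against 7.15%, and the 1 promoter case, in Jun, was, against 14.0%. The 1 TGANTCA site at a member's promoter, in Fosl2, was in a footprint of replicate 1 only, against 3.81% in footprints of both. CArG boxes were centred in footprints of both in 0 of 3 promoter cases, against 8.08%, and in 1 of 2 distal cases, against 5.39%. The counts at the loci are small, and sites of a gene share their region.

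Across the loci the replicates held much the same regions. Of 252 distinct regions 68.3% were shared, against 50.6% of the 144484 regions of the genome, 69 were found in replicate 1 only and 11 in replicate 2 only. With each replicate divided by its median over shared regions, the log2 ratio of replicate 1 over replicate 2 had a median of -0.06 and an SD of 0.33 over the 172 regions. Over all 73164 shared regions the median was -0.10 and the SD 0.42. Of the members' regions 35, or 20.3%, lay beyond 1 SD of all regions, against 31.4%. As deposited, without the division, 153 of the 172 were higher in replicate 1, or 89.0%, against 77.5% of all. The regions at the loci were stronger than most, with a median of 2.39 in replicate 1 against 1.28 over all shared regions, and the part of signal strength in these shares was not tested.

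**Figure D4:**
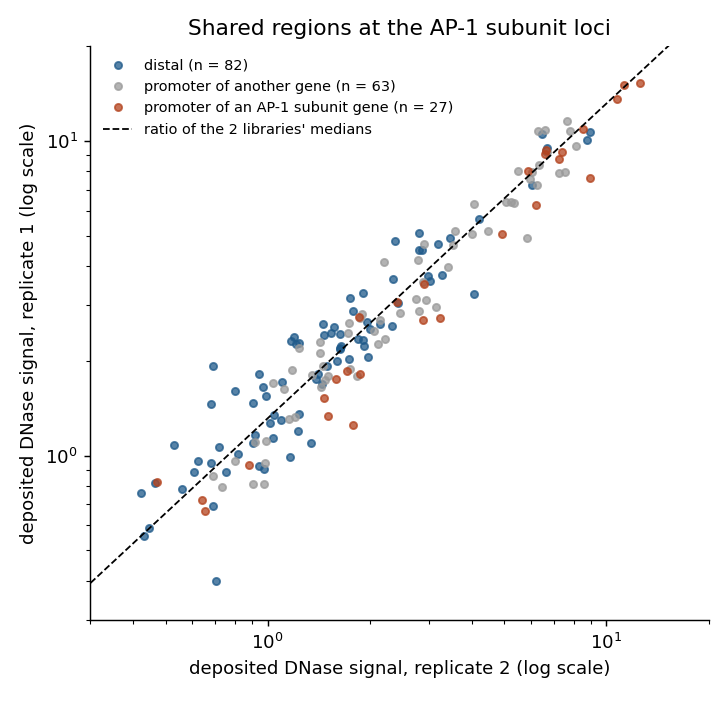
Deposited signal in replicate 1 (y axis) against replicate 2 (x axis), both on log scales, for the 172 shared regions at the AP-1 subunit loci, coloured by class; the dashed line is the ratio of the libraries' medians over all shared regions. The points follow the line over the whole range, with promoters of AP-1 subunit genes at both ends of it.

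Genes for the kinases and factors upstream of AP-1 were open in 22 of 22 cases, against 66.1% of all genes. Their median signal was 8.20, against 4.61 over all open promoters. With the stricter lists 20 were open, against 61.8% of all genes. Map2k1, the MEK kinase above ERK, had 21.5 in replicate 1 and 15.5 in replicate 2 (18.5 ± 4.2). Map2k7, a kinase of JNK, had 17.6 in replicate 1 and 16.5 in replicate 2 (17.0 ± 0.76). Mapk14, the stress kinase p38 alpha, had 14.2 ± 1.1, and Rps6ka5, a kinase of CREB and histone H3, had 14.1 ± 2.2. The MAP kinase genes of this list were not uniform, since Mapk10, the JNK gene best known from neurons, had 0.730 ± 0.16.

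Of 18 genes for other bZIP proteins, partners or competitors of AP-1, 18 were open, against 66.1% of all genes. Their median was 7.18, against 4.61 over all open promoters. Ddit3, the stress factor CHOP, had 20.6 in replicate 1 and 13.9 in replicate 2 (17.3 ± 4.7). Atf7 had 15.5 ± 2.4, Nfe2l2, the oxidative stress factor NRF2, had 13.0 ± 4.8, and Atf2 had 12.1 ± 4.5. Jdp2, whose protein dimerizes with Jun, had 7.34 in replicate 1 and 6.36 in replicate 2 (6.85 ± 0.69). Its gene body reaches into the Batf locus, but its promoter lies outside it.

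Genes described as AP-1 targets were open in 14 of 20 cases, a share near the 66.1% of all genes. Their median was 3.71, against 4.61 over all open promoters. Hmox1, which encodes haem oxygenase, had 7.72 ± 1.4, and Mt1, a metallothionein gene, had 5.82 ± 1.6. Vegfa had 5.38 ± 1.7 and Ccnd1, which encodes cyclin D1, had 5.00 ± 0.77. Mmp3, Mmp10, Mmp13, Spp1 and Lor had no promoter peak in either replicate. Of these, Mmp3, Mmp10 and Mmp13 encode secreted proteases, Spp1 encodes osteopontin and Lor encodes loricrin of the epidermis. Krt14, a keratin gene of basal epithelial cells, had a peak in replicate 1 only.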

How the data were processed

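DNase-seq of 2 bladder libraries was used as deposited. Per the labels, the authors' files use the build mm10. The aligner, the callers and the scaling of the signal were not given in the sources used here. Each library has a looser peak list, used here, and a stricter one, and both carry the authors' deposited signal, a density per peak. All peaks touch stretches that the authors' FDR track, a p-value or q-value per position, puts at 0.05 or lower in the looser list and at 0.001 or lower in the stricter one. Footprints served as positions, since their deposited value is 0.01 everywhere. Reads of the parental genomes were not separated.

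Peaks were joined into regions (overlap of at least 1 bp), a shared region keeping the highest peak signal of each replicate. Genes and starts came from GENCODE M21, in which all 10 genes were matched, and sequences from RefSeq GRCm38.p6. Promoter windows were cut from that sequence around the GENCODE principal starts. A site counted as footprinted where its centre lay in a footprint. Python 3.11.15, numpy 2.4.6, pandas 2.3.3 and matplotlib 3.10.9 were used, and the counting steps were tested on simulated data. The members, gene lists and motifs were chosen with earlier results of these data known. All members were named, as were up to 4 open genes with the highest signal and up to 4 genes without a peak per list, and the strongest distal region per locus. Mapk10, Jdp2 and Krt14, the other distal regions and the lists' further genes that are named were chosen after their values were seen. No replicated comparison existed, so no test was run. The alternatives were each replicate alone, the stricter lists, equal numbers of peaks, other promoter, flank and motif windows, a larger overlap, other FDR thresholds and no division by the median. Not every listed marker gene is reported here by name.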

Additional observations from a re-analysis of the deposited data

How the results depend on the processing

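The number of members with an open promoter stayed at 9 in 5 of the 6 alternatives and was 10 in replicate 1 alone. Median promoter signal was 8.28 over 9 members and 8.52 in replicate 2 alone, also over 9. It was 8.98 in replicate 1 alone, over 10 members because Batf counted there, and so moved beyond its limit. Each single replicate used its own strongest promoter peak. Shared regions per locus had a median of 18, which became 7 with a flank of 10 kb and 11 with 25 kb, where the medians of all genes were 3 and 4. Footprints per locus had a median of 34.5 when overlap between replicates was required, 56.5 to 80 in a single replicate, and 17 with a flank of 10 kb. Bases per locus, averaged over the replicates, had a median of 7519 at an FDR of 0.05 and of 5431 at 0.001. The median log2 ratio between replicates of -0.06 reversed to 0.34 when the deposited values were not divided by their medians, which that choice fixes by its construction. The share of distal regions with TGANTCA, 19.5%, ranged from 16.1% to 18.5% in single replicates and was 13.6% with the stricter lists. It was 14.6% in 100 bp windows, 18.3% over whole regions and 16.7% with a flank of 10 kb. In 100 bp windows the share of all distal regions was 9.37%, and the cause of the change with the stricter lists was not tested. The upstream, partner and target lists held 54 open genes (22 of 22, 18 of 18 and 14 of 20), and 52 with the stricter lists. The shares over all genes were 66.1% and 61.8%. Of the values for single genes and single lists 117 stayed within their limits under an alternative and 19 moved, most of them counts under a narrower flank. All are positive signals or counts, so none could reverse. The limit of a promoter signal is the SD between replicates, so the value of 1 replicate for the same region cannot move beyond it. Part of the 117 was therefore fixed in advance. Without replicate 2 the counts of regions moved at Fos, Fosl1 and Jun, to 23, 33 and 20. No paired analysis was possible because there is 1 group. The step of replicate 2 is larger than that of replicate 1, no total of cuts is known here, and whether depth has a part in the missing Batf peak of replicate 2 was not tested.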

Other observations

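Other motifs were counted in the central 200 bp of the 82 distal regions at the AP-1 subunit loci. GGGCGG, the core of Sp factor sites, was found in 22 of them, or 26.8%, against 11.0% of all shared distal regions. GGAATG, the core of TEAD sites, was found in 6, or 7.32%, against 14.6%. The CTCF core motif was found in 7, or 8.54%, against 14.6%, and AGATAA, which GATA factors bind, in 3, or 3.66%, against 8.46%. TGACGT was found in 5, or 6.10%, against 2.72%. These are descriptions of 82 regions at 10 loci, and no test was run on them.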
